A study of Apis mellifera with 18 samples.

Results

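Brains of honey bees (Apis mellifera) fed the insecticide dinotefuran were compared with brains of sugar-fed control bees at the earliest age sampled, 1 d. The comparison used 6 of the 18 libraries of the series, chosen by their labels: DT_1d replicates 1 to 3 and C_1d replicates 1 to 3. Newly emerged workers from several colonies were caged in darkness, every cage received 2 mL of 50% sucrose solution renewed each day, and the solution of the DT cages held dinotefuran at 0.01 mg/L. A library holds the RNA of several brains pooled. Whether the libraries of a group came from separate cages is not given in the sources used here, so the p-values measure only the spread between these libraries, which may in part be technical. The other 12 libraries, C and DT at 5 d and at 10 d, entered the model for its estimate of the spread and were used to ask whether a change at 1 d differed at the later ages.

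Dinotefuran is a neonicotinoid. Neonicotinoids bind nicotinic acetylcholine receptors, ligand-gated cation channels built from several subunits, and insect brains use acetylcholine as a main excitatory transmitter, so that the receptors occur in the antennal lobes and mushroom bodies that serve smell, learning and memory. Insects meet foreign compounds with cytochrome P450s and glutathione S-transferases, and bacteria with antimicrobial peptides. Newly emerged bees are also still maturing: their cuticle hardens, and the hypopharyngeal glands, which lie in the head close to the brain, begin to make royal jelly proteins.

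The deposited values are FPKM, fragments per kilobase of transcript relative to all mapped fragments of a library. FPKM are shares of a library, and a few genes took a large part of each library: the 10 most abundant genes held 39.7%, 55.3% and 55.7% of the summed FPKM in the C_1d libraries and 64.6%, 59.5% and 58.5% in the DT_1d libraries. All levels below are therefore scaled FPKM, in which each library was divided by its median ratio to the geometric mean of the 9119 genes above 0 in all 18 libraries, and all changes are relative to most genes. These ratios were 1.65, 0.83 and 0.77 in C_1d replicates 1, 2 and 3 and 0.539, 0.64 and 0.711 in DT_1d replicates 1, 2 and 3, so that in the FPKM as deposited the median gene was 0.67 log2 units lower in DT_1d than in C_1d. Changes are given as log2 fold changes on the scale of log2(scaled FPKM + 0.1), which understates those of low genes.

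C_1d replicate 1 stood apart from the other libraries at 1 d. Of 9352 genes tested, 517 were more than 2-fold above and 602 more than 2-fold below both other controls in it, 12% in all, while this share was between 0.823% and 1.58% in the other libraries at 1 d. The 9 major royal jelly proteins, secretions of the hypopharyngeal glands, summed to 2581 in C_1d replicate 1 and to 51545 and 66863 in C_1d replicates 2 and 3. Hbg3, alpha-glucosidase of the same glands, had the opposite order, 5220 in C_1d replicate 1 against 86.2 and 64.4. In the older controls Hbg3 was between 7519 and 8522 at 5 d and between 3329 and 8918 at 10 d. Whether C_1d replicate 1 is nearer to the older controls over all genes was not tested. Of the 9 royal jelly proteins taken singly, 6 were lowest in C_1d replicate 1 among the 6 libraries and 3 were highest in it. The 7 cytosolic ribosomal protein genes were each lowest in C_1d replicate 1 among the 6 libraries, and the 4 opsin genes, expressed in the eye, were each highest in it. In Hbg3 the log2 fold change of DT_1d was 0.07 with all libraries, and 2.12 ± 0.633 without C_1d replicate 1 (limma, unadjusted p of 0.00465, adjusted p of 0.657), where DT_1d, at 290, 124 and 943, lay above both controls. What set this library apart was not tested. The calls, the lists and the genes that the results turn on are given with and without it.

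**Figure D1:**
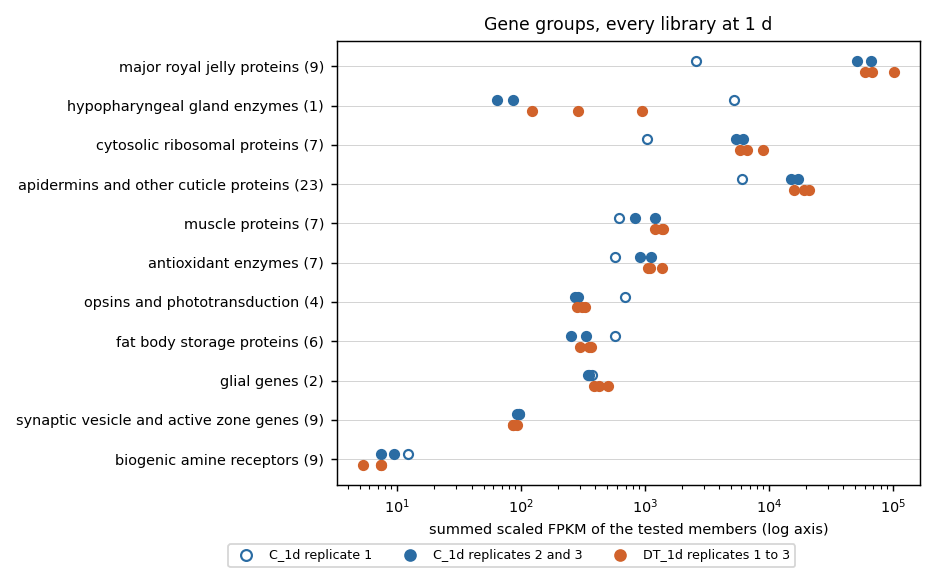
Summed scaled FPKM (log axis) of the tested members of 11 gene groups in each of the 6 libraries at 1 d, with the number of members in brackets; open circles mark C_1d replicate 1, filled blue circles the other controls and orange circles DT_1d. C_1d replicate 1 lies far below the other libraries for the royal jelly and ribosomal proteins and above the other controls for Hbg3 and the opsins.

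The other tissues of the head can enter a brain dissection, and their markers were read in all libraries. In bulk tissue fewer cells of a type and less RNA per cell cannot be told apart. The royal jelly proteins summed to 102280, 68407 and 60248 in DT_1d, the range of DT_1d overlapping that of C_1d. The 7 muscle proteins summed to 625, 836 and 1209 in C_1d and to 1372, 1401 and 1214 in DT_1d, so that the groups just did not overlap. The cuticle proteins summed to between 6099 and 17388 in C_1d and between 16111 and 21051 in DT_1d. The fat body list, storage proteins and the transferrin Tsf1, summed to between 253 and 580 against between 299 and 371. Tsf1 made up most of this sum, at 568, 199 and 281 in C_1d and at 331, 282 and 246 in DT_1d. C_1d replicate 1 was the highest of the 6 libraries for 1 member of this list and the lowest for the other 5. No marker list was at 0 in any library. Neuronal genes were present throughout, with the 9 synaptic vesicle and active zone genes at summed levels of 93.3, 97.3 and 95.9 in C_1d and 92.6, 86.2 and 86.5 in DT_1d. The glial pair GlnS (glutamine synthetase) and Eaat-2 (a glutamate transporter) summed to between 350 and 376 in C_1d and between 389 and 506 in DT_1d. GlnS made up most of this sum. Eaat-2 overlapped, at 23.5, 20.3 and 14.7 in C_1d and at 22.7, 19.4 and 18.6 in DT_1d. The median log2 fold change of the pair was 0.18, and -0.25 after quantile normalization. The part of these tissues in the results below was not tested.

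Among genes, a single one passed the threshold of limma, a Benjamini-Hochberg adjusted p under 0.05 and a log2 fold change beyond 1: LOC409088 rose, 0.0107% of the genes tested, and no gene fell. At an unadjusted p under 0.05 with the same fold, 80 genes were higher (0.855%) and 41 were lower (0.438%). Without C_1d replicate 1 there were 32 higher and 28 lower genes at that unadjusted threshold, 36 of them shared with the full comparison (19 higher, 17 lower). The adjusted threshold then left 1 gene, LOC411996. No gene was called without C_1d replicate 3, DT_1d replicate 1 or DT_1d replicate 3, and the unadjusted count of 121 became 300 without C_1d replicate 2, 387 without C_1d replicate 3 and 70 without DT_1d replicate 1. For 773 genes (8.27% of those tested) every DT_1d library lay above every control, for 891 (9.53%) every one lay below, and 80 of these 1664 genes had a log2 fold change beyond 1. These shares were 14.6% and 15.8% without C_1d replicate 1. An exact permutation test of 3 libraries against 3 cannot give a two-sided p below 0.1, so single genes rest on the model over all genes. Most differences were small: the median absolute log2 fold change of the genes that did not overlap was 0.39 for the higher and 0.36 for the lower ones. Over all genes the median log2 fold change was -0.016, and 0.013 without C_1d replicate 1, the values against which the lists below are read. The share of all genes with a log2 fold change below 0 was 52%, and 47.9% without C_1d replicate 1.

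LOC409088, which lies on chromosome 2 of Amel_HAv3.1 at 15258712 to 15260435, was at 0.412, 2.18 and 0.465 in C_1d and at 5.32, 5.87 and 6.23 in DT_1d. The lowest DT_1d library was thus more than 2-fold above the highest control. Its log2 fold change was 2.76 ± 0.469 (SE, n = 3 and 3), with an adjusted p of 0.0462 from limma. Without C_1d replicate 1 it was 2.38 ± 0.489, with an adjusted p of 0.189, so the call was lost while the groups stayed apart. It passed in 4 of the 17 alternatives tried, with adjusted p-values from 0.000717 to 0.665 over them. At 5 d the gene was between 2.21 and 4.4 in C and between 1.2 and 3.34 in DT, and at 10 d between 1.18 and 2.04 in C and between 2.96 and 3.27 in DT, and neither of these contrasts passed (limma, adjusted p of 0.695 and 0.416). The difference of its change at 1 d from that at 5 d was 3.15 log2 units (adjusted p of 0.139) and from that at 10 d 1.76 (adjusted p of 0.286).

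LOC411996, on chromosome 1 at 14830680 to 14836466, passed the threshold only when C_1d replicate 1 was left out. It was at 9.52, 0.0157 and 0 in C_1d replicates 1, 2 and 3 and at 2.3, 1.39 and 3.2 in DT_1d. Without the first control its log2 fold change was 4.40 ± 0.326, with an adjusted p of 1.8e-05 from limma, and with all libraries it was 2.24 ± 1.14 with an adjusted p of 0.52 (range over 17 alternatives from 1.8e-05 to 0.778, 2 of them called). The libraries of the other ages were between 2.00 and 4.03 in all C and DT groups, so that C_1d replicates 2 and 3 were below every other library and C_1d replicate 1 was above every other.

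The 12 genes of lowest p in each direction were taken among those whose libraries did not overlap and whose higher group mean reached 1. Chosen in this way, they are a description and not a test. All 24 kept their direction without C_1d replicate 1, which a choice made on the same DT_1d libraries and the other controls nearly fixes. For the 22 that carry a LOC identifier the files and reference table used here give no function, with LOC409523, named by the study as mitogen-activated protein kinase 1, as the exception.

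**Figure D2:**
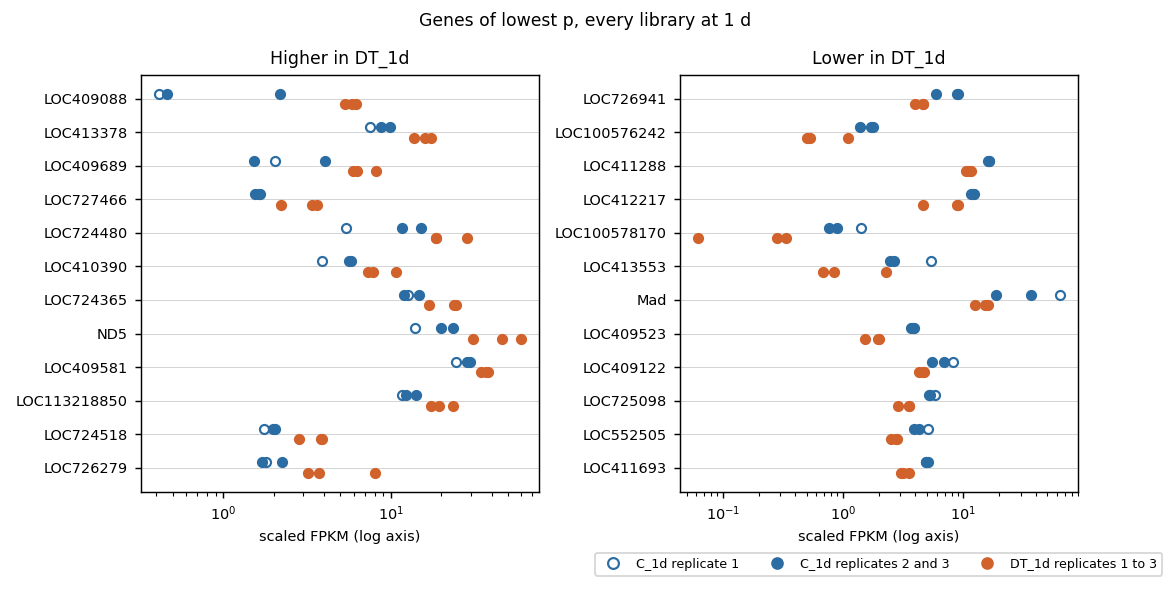
Scaled FPKM (log axis) of the 12 higher and 12 lower genes of lowest unadjusted p in each of the 6 libraries at 1 d; open circles mark C_1d replicate 1, filled blue circles the other controls and orange circles DT_1d. The genes were chosen for groups that do not overlap. C_1d replicate 1 is the control farthest from DT_1d for most of these genes, among them LOC409088, LOC724480, ND5, LOC413553 and Mad.

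Beside LOC409088, the genes with the highest folds on the higher side were LOC409689, LOC726279 and ND5. LOC409689 (chromosome 1, 15872179 to 15875269) was at 2.05, 1.52 and 4.04 in C_1d and at 8.16, 5.93 and 6.32 in DT_1d. Its log2 fold change was 1.49 ± 0.34 (limma, unadjusted p of 0.00045, adjusted p of 0.386) and 1.40 without C_1d replicate 1. LOC726279 (chromosome 16, 5271408 to 5272372) was at 1.79, 2.24 and 1.7 in C_1d and at 8.03, 3.2 and 3.73 in DT_1d, where DT_1d replicate 1 was the high library. Its log2 fold change was 1.23, and 1.19 without C_1d replicate 1. LOC724480 (chromosome 6, 16253267 to 16256159) was at 5.41, 15.1 and 11.7 in C_1d against 28.7, 18.6 and 18.7 in DT_1d, and its log2 fold change of 1.12 became 0.69 without C_1d replicate 1. LOC413378 (chromosome 1, 24133647 to 24136437) was at 7.54, 8.69 and 9.84 against 17.4, 16 and 13.8. The other 6 higher genes, LOC727466, LOC410390, LOC724365, LOC409581, LOC113218850 and LOC724518, had log2 fold changes between 0.41 and 0.86. In the FPKM as deposited, without scaling, LOC409581 and LOC113218850 turned to -0.29 and -0.056.

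On the lower side, LOC100578170 had the highest fold. It lies on chromosome 2 at 14297605 to 14300261 and was at 1.41, 0.9 and 0.769 in C_1d and at 0.334, 0.281 and 0.0618 in DT_1d. Its log2 fold change was -1.87 ± 0.50 (limma, unadjusted p of 0.00194, adjusted p of 0.511) and -1.64 without C_1d replicate 1. LOC413553 (chromosome 12, 3102442 to 3116747) was at 5.4, 2.45 and 2.64 against 2.28, 0.677 and 0.844, so that DT_1d replicate 1 lay just under the controls, and its log2 fold change of -1.49 was -1.13 without C_1d replicate 1. LOC100576242 (chromosome 1, 20574167 to 20578309) was at 1.76, 1.38 and 1.71 against 1.1, 0.503 and 0.533 (-1.15, and -1.08 without that library). The other 7 lower genes without a known name, LOC726941, LOC411288, LOC412217, LOC409122, LOC725098, LOC552505 and LOC411693, had log2 fold changes between -0.81 and -0.56. Among them LOC411288 had the most even controls, as it was at 16.5, 16.3 and 16.2 in C_1d and at 10.5, 11.2 and 11.6 in DT_1d.

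Mad and LOC409523 belong to signalling through growth factors. Mad (chromosome 15, 951021 to 1360467) encodes the transcription factor that in Drosophila carries the signal of bone morphogenetic protein receptors to the nucleus. It was at 63.8, 18.7 and 36.5 in C_1d and at 16, 15.1 and 12.5 in DT_1d. The controls varied among themselves more than 3-fold, and C_1d replicate 2 was close to the DT_1d libraries. Its log2 fold change was -1.28 ± 0.348 (limma, unadjusted p of 0.00217, adjusted p of 0.511) and -0.85 without C_1d replicate 1. LOC409523, mitogen-activated protein kinase 1, a kinase of the pathway downstream of growth factor receptors (chromosome 3, 4940307 to 4943048), was at 3.85, 3.67 and 3.91 in C_1d and at 1.96, 2.00 and 1.54 in DT_1d. Here the controls were even, and the log2 fold change of -1.03 ± 0.28 (unadjusted p of 0.0022, adjusted p of 0.511) stayed at -1.02 without C_1d replicate 1.

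**Figure D3:**
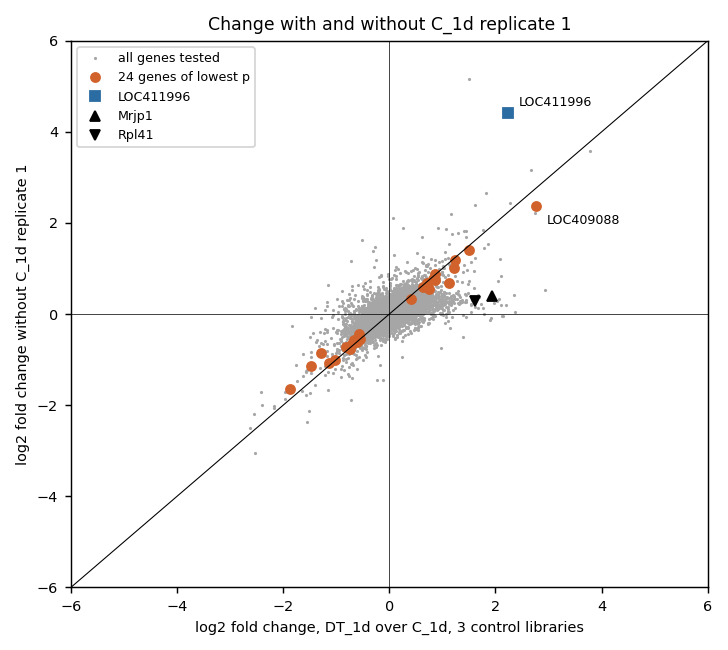
log2 fold change of DT_1d over C_1d for the 9352 genes tested, with the 3 controls (x axis) and without C_1d replicate 1 (y axis); the diagonal marks equal values, orange circles the 24 genes of lowest p. The orange circles lie near the diagonal, LOC411996 lies above it (2.24 and 4.40), and Mrjp1 and Rpl41 lie below it (1.94 and 0.40, 1.62 and 0.29).

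The mitochondrial genome encodes subunits of the respiratory chain. Of its 13 protein genes 9 were tested (ATP6, ATP8, COX3 and ND3 did not pass the filter), all 9 had a log2 fold change above 0 with and without C_1d replicate 1, and their median was 0.51 and 0.60, while in the FPKM as deposited the median was -0.19, against -0.67 over all genes. None passed the adjusted threshold, and 3 of 9 had an unadjusted p under 0.05 on the higher side, against 6.58% of all genes. ND5, a subunit of complex I, was at 14, 20 and 23.5 in C_1d and at 59.7, 31.1 and 46 in DT_1d, with a log2 fold change of 1.23 ± 0.319 (unadjusted p of 0.0015, adjusted p of 0.511) that was 1.02 without C_1d replicate 1. ND4 was at 38.5, 42.6 and 38.2 against 163, 46.4 and 112 (1.25, and 1.23 without that library). ND4L was at 1.1, 0.41 and 0.267 against 10.5, 0.294 and 13.6 (2.67, and 3.16 without it). In ND5, ND4 and ND4L, all of complex I, DT_1d replicate 2 was the lowest DT_1d library, and for ND4L it lay within the controls. COX1, the core of cytochrome c oxidase, was at 3914, 4105 and 3028 against 2530, 5609 and 4295, with DT_1d replicate 2 the highest library.

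The 10 nicotinic acetylcholine receptor subunits listed were all tested and none passed the adjusted threshold. Their median log2 fold change was -0.23, and -0.16 without C_1d replicate 1. The groups did not overlap for 1 of the 10, nAChRa9, a share close to the 8.27% of all genes that were higher in this way. It was at 1.09, 2.54 and 2.74 in C_1d and at 3.56, 3.62 and 3.39 in DT_1d, higher in 3 of 3 DT_1d libraries than in any control. Its log2 fold change of 0.81 ± 0.288 (limma, unadjusted p of 0.0133, adjusted p of 0.511) became 0.40 ± 0.229 without C_1d replicate 1 (unadjusted p of 0.0986). C_1d replicate 1 was its lowest library.

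For nAChRa2 the levels were 3.22, 1.98 and 1.44 in C_1d and 1.46, 1.22 and 1.69 in DT_1d, and its log2 fold change of -0.51 ± 0.238 (unadjusted p of 0.0496) was -0.21 without C_1d replicate 1, which was its highest library. nAChRb1, a beta subunit, was at 2.04, 1.75 and 1.18 against 1.12, 0.925 and 1.46, and nAChRa6 at 1.65, 1.05 and 1.14 against 0.96, 0.763 and 1.09. nAChRa7 was at 0.75, 0.907 and 0.505 against 0.515, 0.523 and 0.525, and nAChRa1 at 0.433, 0.724 and 0.49 against 0.418, 0.566 and 0.293. The groups overlapped for all of them. nAChRa8, the subunit of highest level, was at 5.1, 4.24 and 3.82 against 4.01, 3.68 and 4.45, a log2 fold change of -0.11 ± 0.163. nAChRa3 was at 3.1, 2.95 and 2.93 against 2.9, 3.01 and 2.26, and nAChRa4 at 1.42, 1.2 and 1.15 against 1.24, 1.16 and 1.43. nAChRb2 was at 0.751, 0.612 and 0.825 against 1.52, 0.784 and 0.74, with DT_1d replicate 1 the single high library. AChE-2, the acetylcholinesterase that removes the transmitter, was at 4.89, 4.81 and 3.38 in C_1d and at 3.26, 2.85 and 3.34 in DT_1d, with the lowest control 0.04 above the highest DT_1d library (-0.44, and -0.35 without C_1d replicate 1).

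**Figure D4:**
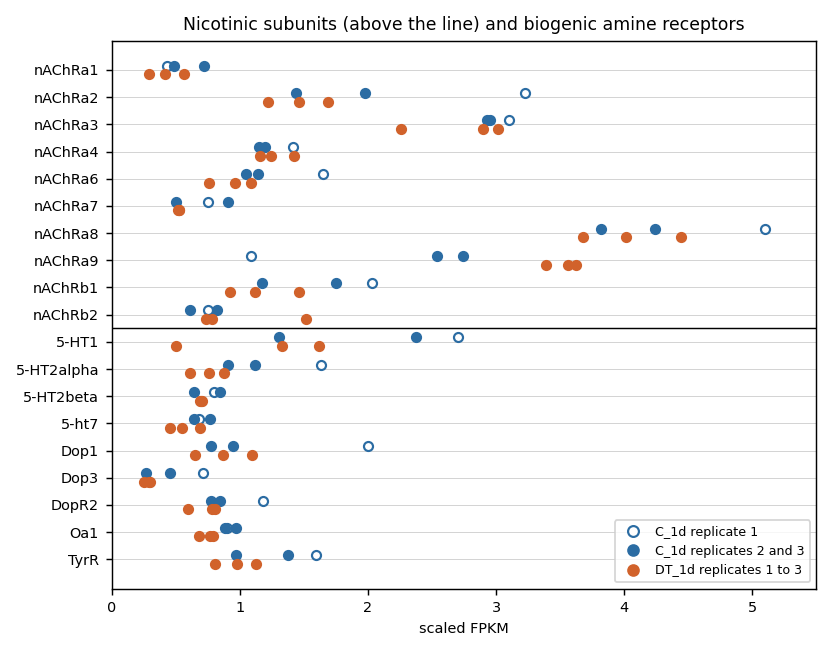
Scaled FPKM of the 10 nicotinic acetylcholine receptor subunits (above the line) and the 9 biogenic amine receptors (below it) in each of the 6 libraries at 1 d; open circles mark C_1d replicate 1, filled blue circles the other controls and orange circles DT_1d. nAChRa9 lies between 3.39 and 3.62 in DT_1d and at or below 2.74 in C_1d, while most other receptors overlap.

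The 9 biogenic amine receptors, through which serotonin, dopamine, octopamine and tyramine tune behavior, all had a log2 fold change below 0, with and without C_1d replicate 1. Their median was -0.38, and -0.26 without that library, and none passed the adjusted threshold. At an unadjusted p under 0.05, 2 of 9 were lower, against 3.98% of all genes. The serotonin receptor 5-HT1 was at 2.71, 2.37 and 1.3 in C_1d and at 1.62, 0.5 and 1.33 in DT_1d, which overlap (-0.91, and -0.71 without C_1d replicate 1). 5-HT2alpha was at 1.63, 1.12 and 0.909 against 0.761, 0.609 and 0.881, a log2 fold change of -0.61 ± 0.243 (unadjusted p of 0.0234, adjusted p of 0.511) that was -0.40 without C_1d replicate 1. The octopamine receptor Oa1 was at 0.899, 0.974 and 0.885 against 0.768, 0.682 and 0.788. The groups of 5-HT2alpha and Oa1 did not overlap, 2 of 9 receptors, against 9.53% of all genes that were lower in this way. C_1d replicate 1 was the highest of the 6 libraries for 6 of the 9 receptors, and the dopamine receptor Dop1, at 2.00, 0.95 and 0.775 against 1.1, 0.652 and 0.871, had no difference left without it.

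Among the other neuronal groups no gene passed the adjusted threshold. The 7 receptors for GABA, glutamate and histamine had a median of -0.30, and -0.11 without C_1d replicate 1, and the groups overlapped for all 7. The 7 neuropeptide precursors had a median of -0.45, and -0.08 without that library. The median of the 9 synaptic genes was -0.21 and turned to 0.045 without C_1d replicate 1, where 5 of the 9 were above 0. Of the 9 synaptic genes, 3 did not overlap and were lower: Syt1 (synaptotagmin, the calcium sensor of release) at 23.7, 25 and 22.3 in C_1d against 20.1, 19.7 and 21.3 in DT_1d, LOC408465 (vesicle-associated membrane protein 2) at 23.2, 21.3 and 21.2 against 18.8, 17.3 and 20.3, and NLG-3 (a neuroligin). Their log2 fold changes were between -0.22 and -0.21. The share of all genes that did not overlap and were lower was 9.53%. The clock genes Per and Cry2 overlapped between the groups.

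Detoxification genes showed few differences. Of 7 cytochrome P450s, none passed, and the median turned from -0.14 to 0.31 without C_1d replicate 1. Cyp314a1, which makes the molting hormone 20-hydroxyecdysone, was at 0.856, 0.953 and 0.53 in C_1d and at 0.382, 0.525 and 0.505 in DT_1d (log2 fold change of -0.60 ± 0.274, unadjusted p of 0.0439), and the change was -0.52 without C_1d replicate 1 (unadjusted p of 0.109). Cyp4g11, of the family that makes cuticle hydrocarbons, was at 3.75, 5.11 and 5.31 against 6.05, 5.51 and 8.88 (0.50, and 0.35 without that library). Cyp6as5 was at 66.1, 30 and 33.7 against 41.5, 37.1 and 39.7, and lay above the controls only when C_1d replicate 1 was left out. The 4 glutathione S-transferase genes had a median of 0.24, and of 0.35 without C_1d replicate 1. This median was -0.46 as deposited, against -0.67 over all genes, and turned to -0.056 after quantile normalization. Without C_1d replicate 1, 3 of the 4 did not overlap and were higher (GstS1, GstD1 and GstS4), against 14.6% of all genes. With all libraries only GstS4 did not overlap between the groups. It was at 0.991, 19.3 and 14.7 in C_1d and at 24.3, 21.2 and 20.3 in DT_1d, and the log2 fold change of 1.69 ± 0.737 (unadjusted p of 0.036) was 0.37 without C_1d replicate 1.

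The 7 antioxidant enzymes all had a log2 fold change above 0, with and without C_1d replicate 1, and a median of 0.41 that was 0.23 without it. The median of these enzymes was 0.056 after quantile normalization and -0.29 in the FPKM as deposited, against -0.67 over all genes. None passed the adjusted threshold, and 3 of 7 had an unadjusted p under 0.05, against 6.58% of all genes. Sod2, the mitochondrial superoxide dismutase, was at 34.2, 56.6 and 64.9 in C_1d and at 75.9, 69.9 and 68.3 in DT_1d. The peroxiredoxin Tpx-3 was at 18.4, 22.8 and 27.2 against 31, 31 and 28, and thioredoxin reductase, Trxr-1, at 33.8, 55.2 and 58.3 against 63.8, 65.1 and 61.4. The groups did not overlap for Sod2, Tpx-3 and Trxr-1, 3 of 7, against 8.27% of all genes that were higher in this way. But C_1d replicate 1 was the lowest library for each of the 3, and the log2 fold changes of 0.51, 0.41 and 0.41 were 0.23, 0.26 and 0.16 without it. Of 4 chaperones, 1 did not overlap and was lower, against 9.53% of all genes. This was Hsc70-3, at 58.2, 47.2 and 46.8 in C_1d against 41.8, 45.3 and 46.2 in DT_1d (-0.19, and -0.08 without C_1d replicate 1). Hsp90 was at 109, 52.3 and 43.9 against 42.5, 44.1 and 46.8 (-0.51, and -0.11 without it), and Hsc70-4 at 905, 891 and 914 against 840, 1032 and 875.

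No immune gene passed the adjusted threshold. Hymenoptaecin (LOC406142), an antimicrobial peptide of bees, was at 10168, 2239 and 3120 in C_1d and at 1355, 1656 and 2176 in DT_1d, and did not overlap, with a log2 fold change of -1.29 ± 0.946 (unadjusted p of 0.193) and of -0.64 without C_1d replicate 1. Abaecin (LOC406144) was at 2912, 1314 and 1962 against 1673, 880 and 1374, and Apid1 (apidaecin) at 219, 22.7 and 30.3 against 31.9, 20.1 and 24.5. In all 3 peptides C_1d replicate 1 was the highest library, and without it the log2 fold change of abaecin went from -0.63 to -0.34 and that of Apid1 from -1.09 to -0.07. The defensin Def1 had the opposite order, 2816, 7246 and 9507 against 14693, 9116 and 9802, with C_1d replicate 1 the lowest (0.92, and 0.40 without it), and Def2 was under 0.5 in every library. Among the 8 recognition and signalling genes the groups overlapped for all 8. Dl, the NF-kappaB factor of the Toll pathway, was at 15.3, 20.3 and 21.8 against 14.2, 14.4 and 17.5. Of the immune-related genes that the study names, transportin-1 (LOC408842), a single-Ig receptor related to that of interleukin-1 (LOC100578939), the clustered mitochondria protein homolog (LOC552519) and the prolactin-releasing peptide receptor (LOC727324) overlapped between the groups, with log2 fold changes between -0.09 and 0.29.

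The royal jelly and ribosomal protein lists had high medians that were lower without C_1d replicate 1. The 9 royal jelly proteins all had a log2 fold change above 0, with a median of 1.61 that was 0.42 without this library. Mrjp1, the most abundant, was at 1432, 30564 and 39732 in C_1d and at 63551, 41122 and 37239 in DT_1d, which overlap, and Mrjp7 was at 5.67, 824 and 907 against 1580, 1303 and 938, which do not. The 7 cytosolic ribosomal proteins had a median of 0.87, and 0.29 without C_1d replicate 1. Rpl41 was at 107, 1665 and 1751 against 2758, 1960 and 1671, and RpLP1 at 371, 1474 and 1694 against 2599, 1953 and 1720. In both, DT_1d replicates 2 and 3 were near the level of C_1d replicates 2 and 3, and DT_1d replicate 1 was the highest library.

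The 7 muscle proteins, all troponins, had a median of 0.62, 0.40 without C_1d replicate 1 and 0.23 after quantile normalization. Their median was -0.083 in the FPKM as deposited, against -0.67 over all genes. Of these, 5 had an unadjusted p under 0.05, against 6.58% of all genes, and none passed the adjusted threshold. TpnCI, a troponin C, was at 111, 143 and 211 in C_1d and at 244, 240 and 207 in DT_1d, with C_1d replicate 3 just inside the range of DT_1d. TpnCIIIa was at 239, 198 and 267 against 335, 329 and 303 and did not overlap, with a log2 fold change of 0.47 ± 0.206 that was 0.49 without C_1d replicate 1.

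Of 23 cuticle proteins tested, 2 were higher and 1 was lower at an unadjusted p under 0.05, against 6.58% and 3.98% of all genes. The median of the cuticle proteins was 0.53, 0.096 without C_1d replicate 1 and 0.26 after quantile normalization. It was -0.11 in the FPKM as deposited, against -0.67 over all genes. CPR22 was at 217, 233 and 405 in C_1d and at 514, 697 and 476 in DT_1d, a log2 fold change of 1.02 ± 0.326 (unadjusted p of 0.00674, adjusted p of 0.511) and 0.85 without C_1d replicate 1. CPR2 was at 0.151, 0.0813 and 0.0787 in C_1d and listed at 0 in the 3 DT_1d libraries. CPF2, at 38, 3586 and 3251 against 3019, 3966 and 3014, showed how far the first control lay from the rest at 1 d. In the older controls CPF2 was between 70.6 and 90 at 5 d and between 20.8 and 33.4 at 10 d, near the level of C_1d replicate 1. The 19 odorant binding proteins had a median of 0.30, 0.25 without C_1d replicate 1 and 0.049 after quantile normalization. It was -0.26 in the FPKM as deposited, against -0.67 over all genes. Obp17, Obp18, Obp19 and Obp10 were the 4 of 19 whose groups did not overlap, all higher, against 8.27% of all genes. Obp19 was at 51.5, 39.7 and 61.4 against 87.7, 68.4 and 77.5, and its log2 fold change of 0.63 ± 0.294 was 0.65 without C_1d replicate 1, while that of Obp10 went from 0.56 to 0.12. The 10 juvenile hormone and ecdysone genes overlapped between the groups, among them Kr-h1, a target of juvenile hormone, at 49.3, 40.6 and 35.2 against 40.4, 39.1 and 48.9.

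Long noncoding RNAs (lncRNAs) are transcripts without a coding frame. The 6760 lncRNA values listed for DT_1d replicate 1 equal those of DT_10d replicate 1, 5002 of them above 0, while any other pair of libraries shared at most 2 values above 0. They were left out at 1 d, so that DT_1d had 2 libraries for lncRNAs. Which of the 2 libraries they came from was not tested. Of 4378 lncRNA transcripts tested, 3 rose (0.0685%) and 4 fell (0.0914%) with all controls, and 5 rose (0.114%) and 4 fell (0.0914%) without C_1d replicate 1. With the shared values kept for DT_1d replicate 1 there were 3 and 1, without C_1d replicate 2 there were 4 in all and without DT_1d replicate 2 there were 3, so these calls rest on few libraries. With only the 6 libraries at 1 d in the model, 2 transcripts were called, and none of the 7 called with all libraries was among them. At an unadjusted p under 0.05 and the same fold, with all libraries, 85 were higher (1.94%) and 141 lower (3.22%). Strand was not given in the sources used here, so reads of a lncRNA and of an overlapping gene cannot be told apart, and transcripts of 1 locus share reads whose division between them is an estimate.

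Of the 7 called transcripts, 4 were the pairs of 2 loci, in each of which 1 transcript rose and the other fell. In XLOC_017309, an assembled locus with no position in the files, TCONS_00054973 was at 0.109, 0 and 0.103 in C_1d and at 1.8 and 1.59 in DT_1d replicates 2 and 3. TCONS_00054972 was at 0.989, 1.35 and 2.1 in C_1d and listed at 0 in both DT_1d libraries. The first rose by a log2 fold change of 3.47 ± 0.34 (limma, adjusted p of 0.000709, and 0.000592 without C_1d replicate 1) and the second fell (adjusted p of 0.00446, and 0.0038 without it). The sum of both transcripts was 1.1, 1.35 and 2.21 in C_1d and 1.8 and 1.59 in DT_1d, which overlap. At 5 d TCONS_00054973 was between 0.84 and 1.42 in C and between 1.57 and 1.84 in DT and TCONS_00054972 was listed at 0 in all 6 libraries, so the C_1d libraries were the ones that differed. At 10 d TCONS_00054972 was at 0.288 in DT_10d replicate 1, whose values are the shared ones, and listed at 0 in the others. Apart from that library, TCONS_00054972 passed the filter only through C_1d, the group where it was high. Groups listed at 0 in every library add no spread to the model, so its adjusted p is a description and not a test. The call of TCONS_00054973 held in 14 and that of TCONS_00054972 in 12 of 16 alternatives.

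The pair at LOC410121 (chromosome 14, 8120936 to 8125701) had the same order at 1 d and at 5 d. TCONS_00078477 was at 0.0281, 0.027 and 0 in C_1d and at 0.604 and 0.631 in DT_1d, a rise of 2.61 ± 0.42 (limma, adjusted p of 0.0387, and 0.0656 without C_1d replicate 1). TCONS_00078476 was at 0.381, 0.235 and 0.487 in C_1d and at 0.000119 and 0 in DT_1d, a fall (adjusted p of 0.00879, and 0.0248 without that library). At 5 d, in other libraries, TCONS_00078477 was at 0, 0.0113 and 0.023 in C and at 0.46, 0.659 and 0.51 in DT (adjusted p of 0.00826), and TCONS_00078476 was at 0.332, 0.472 and 0.199 in C and listed at 0 in the 3 DT libraries (adjusted p of 0.00362). At 10 d TCONS_00078476 was between 0.393 and 0.469 in C and between 0.646 and 0.704 in DT, and its change at 1 d differed from that at 10 d by -2.73 log2 units (adjusted p of 0.00791). TCONS_00078477 passed in 6 and TCONS_00078476 in 9 of 16 alternatives. The sum of both transcripts was 0.409, 0.262 and 0.487 in C_1d and 0.604 and 0.631 in DT_1d, which do not overlap. The gene LOC410121 itself was at 3.45, 2.07 and 2.19 in C_1d and at 2.26, 2.66 and 2.93 in DT_1d, which overlap.

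**Figure D5:**
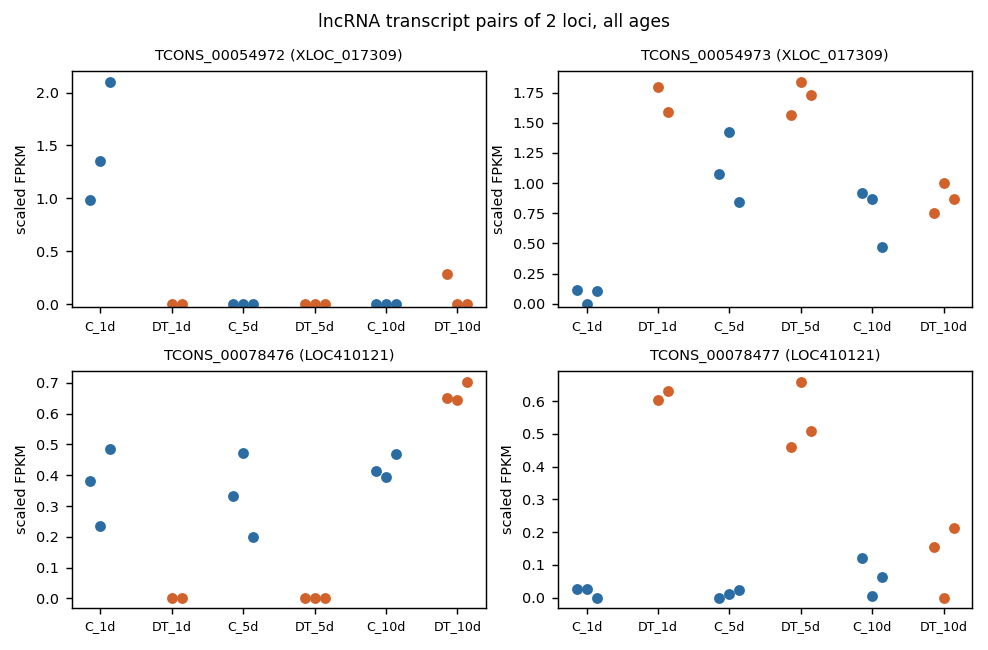
Scaled FPKM of the lncRNA transcripts of XLOC_017309 and LOC410121 in each library of the 6 groups (3 libraries a group, 2 in DT_1d); blue circles are C and orange circles DT. TCONS_00054972 is above 0 in C_1d and in a single DT_10d library, and TCONS_00078477 lies between 0.46 and 0.659 in DT at 1 d and 5 d and at or below 0.212 in the other groups.

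At LOC552020 (chromosome 2, 5569428 to 5659362), TCONS_00014792 was listed at 0 in the 3 controls and was at 0.37 and 0.604 in DT_1d (limma, adjusted p of 0.00879, and 0.0243 without C_1d replicate 1, called in 10 of 16 alternatives). At the later ages it was between 0.15 and 0.293 in DT_10d and at or below 0.0761 in C_5d, DT_5d and C_10d. It thus passed the filter only through DT_1d and DT_10d, the groups where it was high. The sum of the 4 transcripts of this locus was 0.367, 0.71 and 0.388 in C_1d and 0.393 and 0.838 in DT_1d, which overlap. XR_003306290.1, the only transcript of LOC113219308 (chromosome 1, 13714224 to 13726556), was at 1.16, 0.673 and 0.463 in C_1d and listed at 0 in DT_1d (adjusted p of 0.025, and 0.0572 without C_1d replicate 1). At 10 d it was between 0.391 and 1.22 in C and between 3.57 and 5.13 in DT, the opposite order, and the changes differed by -5.34 log2 units (adjusted p of 0.00172). Its call at 1 d held in 7 of 17 alternatives.

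At LOC100577772 (chromosome 10, 2125375 to 2164765) transcript and gene were both lower in DT_1d, but their reads cannot be told apart and their levels were near the 0.1 added before the log. TCONS_00057651 was at 0.148, 0.164 and 0.238 in C_1d and listed at 0 in DT_1d (limma, adjusted p of 0.0311, and 0.0427 without C_1d replicate 1, called in 7 of 16 alternatives). Outside C_1d it was above 0 only in DT_5d replicate 2, at 0.0276. It thus passed the filter only through C_1d, the group where it was high, and groups listed at 0 in every library add no spread to the model. Its adjusted p is a description and not a test. The gene was at 0.213, 0.293 and 0.403 in C_1d and at 0.0327, 0.0557 and 0.0649 in DT_1d. Its log2 fold change of -1.39 did not pass the adjusted threshold at 1 d, and differed from its change at 10 d by -1.96 (limma, adjusted p of 0.0373).

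The 4 transcripts called only without C_1d replicate 1 followed the pattern of LOC411996 in part. XR_001706230.2 was at 2.13, 0.158 and 0.177 in C_1d and at 1.32 and 0.916 in DT_1d, and XR_001703507.2 at 0.936, 0 and 0.00381 against 0.282 and 0.431. In both, C_1d replicates 2 and 3 were below every library of the other ages. TCONS_00001531 of LOC100577254 was at 0.982, 0.00336 and 0.00447 in C_1d and at 0.384 and 0.859 in DT_1d. At 5 d it was between 0.00156 and 0.00397 in C and between 0.459 and 0.559 in DT (adjusted p of 0.0666), and at 10 d it was at or below 0.0292 in C and 0.0142 in DT. C_1d replicate 1 was thus above the DT libraries of every age. XR_003305221.1 was at 0.0211, 0.309 and 1.45 in C_1d and at 0 and 0.00249 in DT_1d.

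Below the adjusted threshold, TCONS_00070704 of LOC410390, whose gene was among the 12 higher ones, was at 0.547, 0.0333 and 0.193 in C_1d and at 7.77 and 1.99 in DT_1d. TCONS_00035345 of LOC550921 was listed at 0 in the controls and was at 5.84 and 5.49 in DT_1d. TCONS_00008594, listed under Tret1, a trehalose transporter gene, was at 5.43, 7.65 and 9.06 against 3.74 and 3.02. Of 26 lncRNAs that the study names, 20 were tested and none passed, the lowest adjusted p being 0.511. At an unadjusted p under 0.05 there were 2, where 2.72% of all lncRNA transcripts were higher and 4.75% lower, and the groups did not overlap for 4 higher and 3 lower ones, against 7.1% and 11.1% of all. TCONS_00086519 was listed at 0 in the 5 libraries used. TCONS_00024915, the most abundant of the 26, was at 21200, 78840 and 89510 in C_1d and at 133900 and 114800 in DT_1d, a log2 fold change of 1.22 ± 3.5 (unadjusted p of 0.731). XR_411131.3 was at 140.4, 65.6 and 73.7 against 44.3 and 48 (unadjusted p of 0.0353).

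Few genes had a change at 1 d that differed from that at a later age. None of the 24 genes of lowest p differed at 5 d or 10 d at an adjusted p under 0.05. At 5 d, 10 of the 12 lower genes again had a log2 fold change below 0 and 5 of the 12 higher genes had one above 0, and at 10 d these counts were 3 and 6. Against 5 d no gene or lncRNA passed the threshold for the difference with all libraries (limma, 570 of both together at an unadjusted p under 0.05 with the same fold). Without C_1d replicate 1 there were 6 genes with the higher change at 1 d (0.0642%), 6 with the lower one (0.0642%) and 3 and 6 lncRNA transcripts (0.0685% and 0.137%). Against 10 d 24 genes (17 with the higher change at 1 d, 0.182%, and 7 with the lower one, 0.0749%) and 13 lncRNA transcripts (2 and 11, 0.0457% and 0.251%) did. Without C_1d replicate 1 these were 36 and 11 genes (0.385% and 0.118%) and 6 and 14 lncRNA transcripts (0.137% and 0.32%), and with all features the count of 37 was 12 without DT_10d replicate 2, 13 without DT_10d replicate 3, 16 without DT_1d replicate 2, 18 without C_1d replicate 2 or C_10d replicate 2 and 24 without DT_10d replicate 1. These 24 genes were chosen for a large difference between the changes, which favours opposite signs. For 22 of the 24 genes the changes at 1 d and 10 d had opposite signs. Of the 24 genes, 20 had a log2 fold change beyond 1 at 10 d but only 1 had so at 1 d. TpnCI was among them, chosen here after its values were seen: its log2 fold change was 0.62 at 1 d and -1.49 at 10 d, where it was between 102 and 107 in C and between 30.4 and 41.9 in DT, and the difference of 2.11 had an adjusted p of 0.00623.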

How the data were processed

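Brain RNA of 18 pooled samples, 6 of them at 1 d, was sequenced by the study. The authors used Hisat2 (genome Amel_HAv3.1) and StringTie for alignment and assembly, and the FPKM they deposited came from Cuffdiff of Cufflinks. Whether strand was used is not given in the sources used here. The 24419 mRNA rows carry 1 value per gene, so 9939 genes were used, 9935 of them matched to the RefSeq table of the same assembly. Samples were grouped by their labels. Low values showed no whole-read steps: in 15 pairs of libraries at most 2.19% of genes below FPKM 0.5 shared 1 ratio, in bins of 1%. The counts behind each value are thus unknown. The study gives read numbers per library, which were not used here, and precision is given as the spread between libraries.

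Scaled FPKM were tested with limma 3.58.1 in R 4.3.3: lmFit on 6 group means over 18 libraries and eBayes with a trend on log2(scaled FPKM + 0.1), for features whose deposited FPKM reached 0.1 in 3 or more libraries, adjusted over genes and lncRNAs together. Named are all called features, the 12 genes and 5 lncRNAs of lowest p in each direction that do not overlap and reach a mean of 1, members of gene lists, found by symbol or synonym, and features the study names. Members and lists were chosen with earlier results of these data known. For 5 planned lists (carboxylesterases, immediate early genes, ketone body metabolism, nuclear oxidative phosphorylation, glycolysis) no member was found by symbol, and they were not analysed here. The procedure was tested on simulated data. Alternatives changed the pseudocount, the filter, the scaling, the libraries, a replicate block, the trend, sample weights and the adjustment. The alternatives for the comparison without C_1d replicate 1, for the differences between ages and for list medians were chosen after seeing the data. Summaries used Python 3.11.15, numpy 2.4.6, pandas 2.3.3 and matplotlib 3.10.9.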

Additional observations from a re-analysis of the deposited data

Results flagged for a closer look

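The change at 1 d differed from that at 10 d, by the test of the difference, for 37 genes and lncRNA transcripts together, and for 67 without C_1d replicate 1. Without that library the change at 1 d also differed from that at 5 d for 21. All differences below are log2 fold changes at 1 d minus those at the later age, at an adjusted p under 0.05 from limma, and their causes were not tested. For lncRNAs, DT_10d replicate 1 holds the values that are also listed for DT_1d replicate 1, and without it the count of 37 was 24.

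With all libraries, the differences from 10 d were -2.73 for TCONS_00078476, -5.34 for XR_003306290.1, 3.24 for TCONS_00054973, -4.57 for TCONS_00054972 and 2.11 for TpnCI. Without C_1d replicate 1 the same differences were -2.69, -5.03, 3.42, -4.81 and 1.89. Only without that library did the following differ from 10 d: LOC411996 by 4.08, XR_003305221.1 by -4.08, TCONS_00001531 by 2.79, XR_001706230.2 by 2.51, XR_001703507.2 by 2.76, CPR19 by 2.84 and Hbg3 by 5.47. Differences from 5 d, again only without it, were 4.32 for LOC411996, 2.05 for XR_001706230.2, 2.44 for XR_001703507.2, 3.05 for TCONS_00054973, -4.16 for TCONS_00054972 and -3.83 for Mrjp7. CPR19 was at 11.7, 72.8 and 84.4 in C_1d and at 94.4, 102 and 86.4 in DT_1d.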

How the results depend on the processing

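Without limits of depth that can be read from FPKM, the number of libraries (3 and 3, for lncRNAs 3 and 2) limits what could be called. The counts at the adjusted threshold moved with most settings. Genes called went from 1 to 0 with a mean FPKM of at least 1, without scaling, with quantile normalization, with only the 6 libraries at 1 d, with the replicate block and with adjustment within each class, to 2 with a pseudocount of 0.01 and to 77 (43 higher, 34 lower) with sample quality weights, whose estimation did not converge and which gave C_1d replicate 2 a weight of 6.31 and C_1d replicate 1 one of 0.119. lncRNA transcripts called went from 7 to 2 with a pseudocount of 1, 0 with the mean filter, 2 without scaling, 2 with only the 6 libraries, 0 with the replicate block, 210 with weights and 4 with the values of DT_1d replicate 1 as deposited. The 2 called with only the 6 libraries at 1 d held none of the 7. With a pseudocount of 0.01, 10 were called, and 4 of these were among the 7.

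At the unadjusted threshold, the 121 genes became 64 with a pseudocount of 1, 78 with the mean filter, 936 without scaling (4 higher, 932 lower), 74 with quantile normalization (43 higher, 31 lower) and 40 with only the 6 libraries, and the 226 lncRNA transcripts became 15 with a pseudocount of 1, 384 with 0.01, 22 with the mean filter and 561 with weights. Genes called without C_1d replicate 1 went from 1 to 3 with a pseudocount of 0.01, 2 without a filter, 0 with only the libraries at 1 d, 2 without the trend and 4 with weights. The 0 differences from 5 d became 4 with a pseudocount of 1, 1 with 0.01, 4 without a filter, 13 without the trend, 164 with weights and 9 with adjustment within each class, and the 37 from 10 d became 21 with a pseudocount of 1, 17 without scaling, 7 with the replicate block and 957 with weights. Whether same-numbered C_1d and DT_1d libraries share more than a number is not given in the sources used here. Their deviations from the group means correlated by -0.0361, 0.0646 and -0.136, and only number 2 correlated best with its own. With 3 libraries a group such correlations cannot decide whether a colony or cage was shared. The replicate block moved the unadjusted count of genes by less than 1.5 times, but it took the genes called from 1 to 0 and the lncRNA transcripts called from 7 to 0.

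With each library left out in turn, genes called ranged from 0 to 1, genes at the unadjusted threshold from 60 (without C_1d replicate 1) to 387 (without C_1d replicate 3; 300 without C_1d replicate 2, 70 without DT_1d replicate 1), lncRNA transcripts called from 3 (without DT_1d replicate 2) to 9 (without C_1d replicate 1) and at the unadjusted threshold from 226 to 346 (without DT_1d replicate 3), genes called without C_1d replicate 1 from 1 to 3 (without C_1d replicate 2 or DT_1d replicate 2), differences from 5 d from 0 to 21 (without C_1d replicate 1; 8 without DT_1d replicate 3) and from 10 d from 12 to 67 (without C_1d replicate 1). Quantile normalization was applied to genes only and was not run for the lncRNAs and the differences. Leaving out DT_1d replicate 2 or 3 leaves 1 lncRNA library there, assumed to vary like the other groups. LOC409581 and LOC113218850 turned to -0.289 and -0.0563 without scaling. Of 425 values of named genes under the alternatives, 13 lost and 8 gained a call, and of 312 of named lncRNA transcripts 48 lost and 14 gained one. Of 459 list medians, 36 moved by more than the spread between libraries.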
